A study of Mus musculus with 120 samples.

Results

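The wells described here are those of the sort for T cell and conventional dendritic cell (cDC) doublets from mouse liver lymph nodes, labelled PIC. They were chosen as the wells listed with 1 cell on every plate that the labels call PIC and that was analysed, with mice on normal diet (ND) or on a methionine and choline deficient diet (MCDD). This gave 3040 wells on 8 plates, of 44840 such wells on 118 plates in the whole series. ND was represented by 3 plates (1140 wells) and MCDD by 5 plates (1900 wells). Another ND doublet plate in the sample list was not analysed here. The mice were of the c57bl strain and had been on either diet for 2 weeks. The sort took CD45+ events negative for lineage markers and positive for MHC-II, CD11c and TCRb, that is, events carrying the antigens of a dendritic cell and of a T cell together. Each sample is 1 plate of 384 wells, and the plate is the replicate. Which mice, or how many, supplied a plate is not given, so a p-value here speaks only to plate-to-plate spread, part of which may be technical.

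Conventional dendritic cells take up antigen in tissue, migrate to the draining lymph node and present peptides on MHC molecules to T cells, which read them through the T cell receptor. Cells in such contact can adhere closely enough to be sorted as 1 event. The methionine and choline deficient diet limits the export of fat from hepatocytes and is used as a feeding model of steatohepatitis.

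The readouts are 2 numbers per well, the genes detected and a total count. Neither names a gene, and gene-level counts were not analysed here, so the label of the sort could not be checked against T cell or dendritic cell transcripts. The plate map lists 1 cell in a doublet well. It is not known whether the total counts reads or molecules. All 8 plates carried the same 384 cell barcodes, 1 per well position. The 8 plates fell into 3 sequencing batches. Batch SB405 held 1 plate per diet, numbered 3, and batch SB410 held 2 plates per diet, numbered 1 and 2. Batch SB399 held 2 MCDD plates and no ND plate, so it enters no comparison of diets within a batch. The sum of the totals over the 380 cell wells of a plate was 2884885 and 4511820 on the ND plates of SB410, and 4553629 and 3820587 on its MCDD plates. In SB405 it was 9095151 on ND and 8832870 on MCDD, and in SB399 it was 7206067 and 6001322.

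The wells listed as empty gave the background of the sort. The 32 empty wells of the doublet plates, 4 on each, had a median of 14 genes and a median total of 451. The 3040 doublet wells had medians of 402 genes and 11068.5. In SB405 and SB410 the highest empty well of the doublet plates reached 33 genes, and in SB399 it reached 69. A doublet well with at most 33 genes is called a low well below, in every batch. The same limit was used for T cell and cDC plates, whose empty wells reached at most 60 and 96 genes. Low wells were few on most plates. SB405 had 8 on ND and 2 on MCDD. In SB410 ND plate 1 had 23, MCDD plate 1 had 42 and MCDD plate 2 had 5. SB399 had 0 on MCDD plate 1, which allows a share of up to 0.789% for counting error alone, and 25 on MCDD plate 2.

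ND plate 2 of SB410 stood apart from the other doublet plates, with 131 low wells of 380 (34.5%). Most lay together at the bottom of the plate, and 15 lay in rows A to J. All 92 doublet wells in rows M to P were low, with a median of 12 genes, a maximum of 32 and a median total of 410. The 4 empty wells of that plate had 4 to 18 genes and a median total of 375. In rows K and L the columns alternated. The 24 wells in even columns had a median of 12.5 genes, and the 24 wells in odd columns a median of 556. Rows A to J of the same plate had a median of 446.5 genes over 240 wells. No other plate of the lymph node sorts had a row in which every cell well was low, among 7 further doublet plates, 14 T cell plates and 11 cDC plates. Many low wells were also present on single cell plates. The cDC ND plate 1 of SB410 had 87 (22.9%), with up to 15 in a plate row. T cell MCDD plate 3 of SB405 had 73 (19.2%), with up to 12 in a plate row. Whether the low wells of the doublet plate received a doublet was not tested, since no readout of the sort itself was analysed here.

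A milder pattern was present on MCDD plate 1 of SB410. In rows E to N, the 70 wells of the odd columns 1 to 13 had a median of 33.5 genes and 35 low wells. The 70 wells of the even columns 2 to 14 in the same rows had a median of 375 genes and 1 low well. Both blocks were picked out after the plate maps had been seen. Genes by well position were only weakly related between plates. Over the 28 pairs of doublet plates, the rank correlation of genes by well position lay between -0.10 and 0.20 across 380 wells that share their barcodes.

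**Figure D1:**
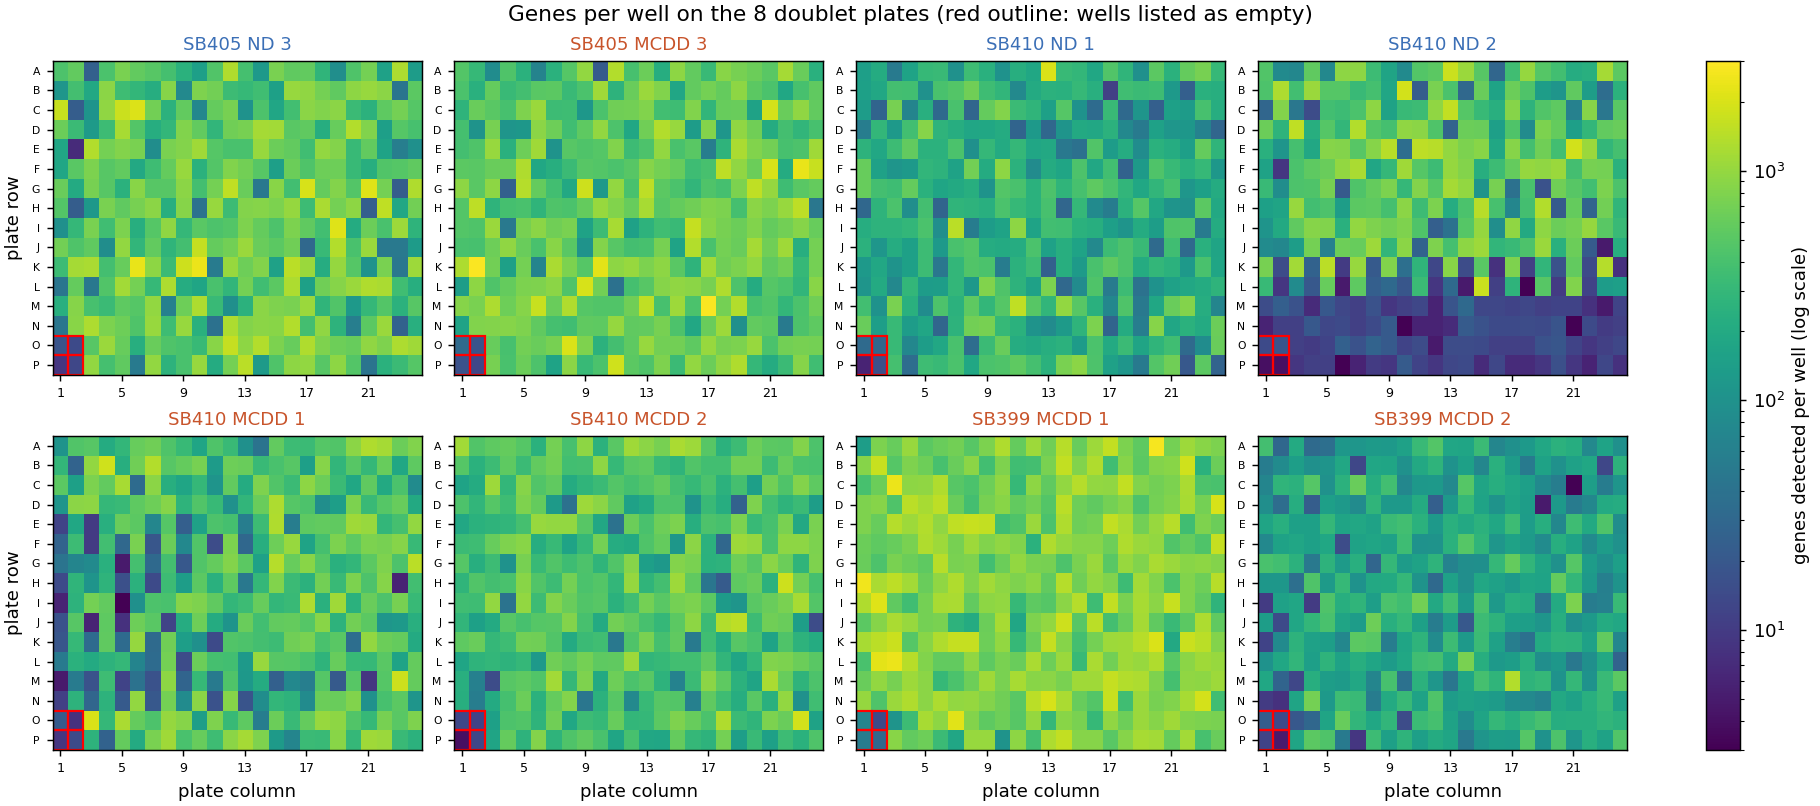
Genes detected per well (colour, log scale) by plate row and column on the 8 doublet plates, named by sequencing batch, diet and number, with the 4 empty wells of each plate outlined in red. On ND plate 2 of SB410, all cell wells in rows M to P had at most 33 genes. So did 22 of the 24 wells in the even columns of rows K and L. The odd columns on the left of MCDD plate 1 of SB410 hold many such wells.

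The comparison of diets asks whether doublets of T cells and dendritic cells differ between mice fed the 2 diets. At the 25th percentile and the median each MCDD plate had more genes than the ND plates of its batch. At the 10th and 90th percentile the plates of both diets overlapped in SB410, and at the 75th and 90th ND was higher in SB405. The median was 550 genes on ND and 581 on MCDD in SB405. In SB410 it was 238 and 274.5 genes on ND and 378.5 and 420.5 on MCDD. The MCDD plates thus lay above the ND plates of their own batch, narrowly in SB405. Within batches the log2 difference of medians was 0.45 ± 0.10 SE (n = 3 plates per diet), 1.37-fold higher on MCDD. The batches differed, at 0.079 in SB405 and 0.64 in SB410. The SE comes from the spread in SB410 alone. In a two-sided exact permutation of diets within batches p was 0.167. With 12 arrangements of these plates no smaller value exists, so no difference between diets could pass at this size. Over the 5 percentiles tested, its adjusted p was 0.417.

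The lower percentiles gave the largest differences and the largest errors. The 25th percentile was 301 genes on ND and 398.75 on MCDD in SB405. In SB410 it was 133.5 and 17 genes on ND, and 161.5 and 270.75 on MCDD. ND plate 2 was the lowest of these by far. The log2 difference was 1.56 ± 1.25 SE (n = 3 plates per diet), and 0.55 without that plate. It was 0.42 when rows A to J alone were used on every plate. The 10th percentile was 123.7 genes on ND and 222.9 on MCDD in SB405. In SB410 it was 55 and 10 genes on ND and 29.9 and 164.9 on MCDD, so the diets overlapped there. Its log2 difference was 1.34 ± 1.42 SE. Leaving out 1 plate at a time in SB410, it was 0.55 without plate 2 of either diet and 2.03 without plate 1 of either diet. It was 0.54 in rows A to J and 0.30 with wells under 100 genes left out, where the 25th percentile gave 0.21. The exact permutation test gave adjusted p of 0.417 and 0.833.

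At the upper percentiles the order of the diets differed between batches or plates. The 75th percentile was 847.75 genes on ND and 820.75 on MCDD in SB405. In SB410 it was 373 and 612 genes on ND and 616 and 617.5 on MCDD, so 3 of the 4 plates were nearly level and ND plate 1 was low. The log2 difference was 0.23 ± 0.29 SE. Without ND plate 1 of SB410 it was -0.012. The 90th percentile was 1146.3 genes on ND and 1127.3 on MCDD in SB405, and in SB410 538.1 and 965.7 on ND against 889.3 and 849.4 on MCDD. The highest value in SB410 was thus that of ND plate 2, the plate with the most low wells. The log2 difference was 0.17 ± 0.35 SE, and it turned to -0.10 without ND plate 1. Adjusted p were 0.833 and 1 in the exact permutation test.

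Restricting every plate to rows A to J moved the median of ND plate 2 from 274.5 to 446.5 genes. The other plates moved less, to 229.5 genes for ND plate 1 and to 401.5 and 448 for the MCDD plates of SB410. The ND and MCDD plates of SB410 then overlapped. In SB405 the medians in these rows were 526 genes on ND and 523.5 on MCDD. The log2 difference of medians was then 0.27, against 0.45 over all wells (exact permutation test, adjusted p = 0.833). This restriction was chosen after the plate maps had been seen. With wells under 100 genes left out on every plate, in all rows, the difference was 0.24 (exact permutation test, adjusted p = 1).

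**Figure D2:**
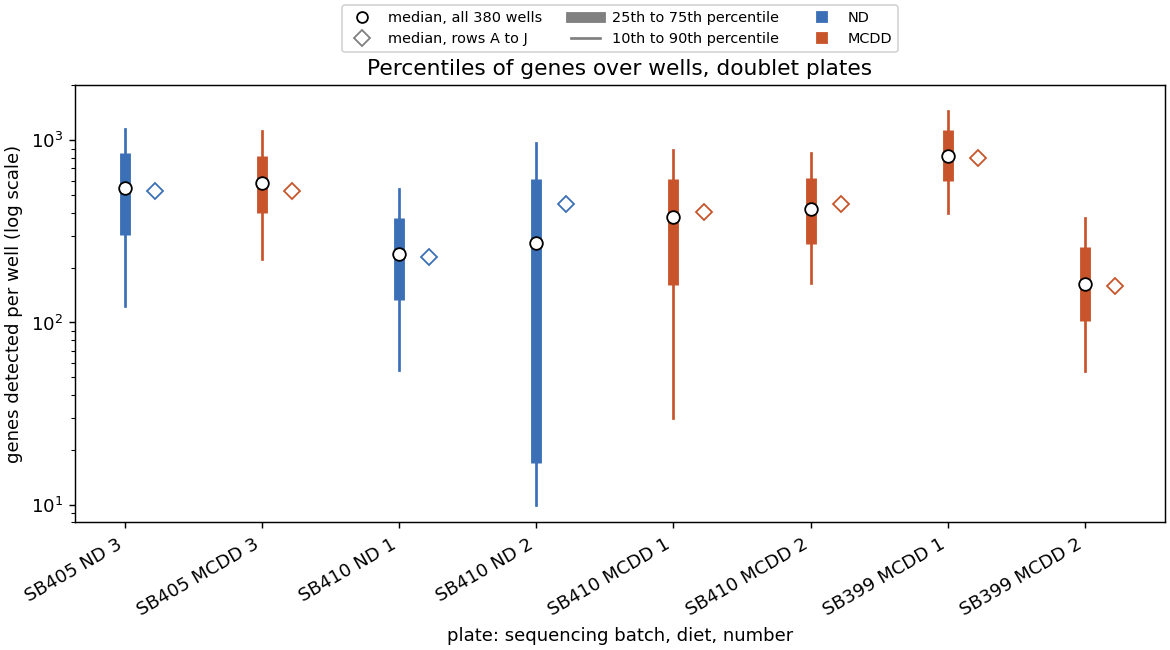
Percentiles of genes per well (log scale) on each doublet plate, with the median of all 380 wells (circle), the median of rows A to J (diamond), the 25th to 75th percentile (thick line) and the 10th to 90th percentile (thin line). The 2 medians of ND plate 2 of SB410 differ, at 274.5 and 446.5 genes, and its 25th percentile of 17 genes is the lowest of the 8 plates.

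Shares of wells above a number of genes gave a like picture. At least 500 genes were reached by 53.7% of wells on ND (95% Wilson interval 48.7 to 58.6) and 58.7% on MCDD (53.7 to 63.5) in SB405. In SB410 the shares were 11.6% (8.74 to 15.2) and 31.6% (27.1 to 36.4) on ND, against 37.6% (32.9 to 42.6) and 38.4% (33.7 to 43.4) on MCDD. ND plate 1 of SB410 thus had the lowest share, and ND plate 2 lay under both MCDD plates with an overlapping interval. The difference within batches was 12.6 ± 8.2 percentage points (SE; n = 3 plates per diet; exact permutation test, adjusted p = 0.5). It was 5.87 without ND plate 1 and 9.72 in rows A to J. In those rows the share on ND plate 2 was 44.2%, above the 38.75% and 40.8% of the MCDD plates of SB410. At least 100 genes were reached by 91.6% of wells on ND and 97.1% on MCDD in SB405. In SB410 this share was 83.7% and 60.3% on ND and 80.5% and 95.3% on MCDD, so the diets overlapped. The difference of 12.5 ± 11.3 percentage points (SE; exact permutation test, adjusted p = 0.5) was 4.74 without ND plate 2. At least 1000 genes were reached by 15.8% on ND and 14.7% on MCDD in SB405. In SB410 it was 0.789% and 8.16% on ND and 6.05% and 5.26% on MCDD, a difference of 0.44 ± 3.03 percentage points within batches (SE; exact permutation test, adjusted p = 1).

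The difference between diets in the median total per well had opposite signs in the 2 batches. The median was 19464.5 on ND and 18977.5 on MCDD in SB405. In SB410 it was 5979.5 and 6905 on ND and 8875 and 7683 on MCDD. The log2 difference was 0.23 ± 0.12 SE (n = 3 plates per diet; exact permutation test, adjusted p = 0.833). In rows A to J it was -0.017, and with wells under 100 genes left out it was -0.11. Leaving out 1 plate at a time in SB410, it was 0.14 without plate 1 of either diet and 0.26 without plate 2 of either diet. The 25th percentile of the total gave 1.10 ± 1.11 SE, 0.17 without ND plate 2 of SB410 and -0.0036 in rows A to J. In rows A to J the median totals of SB410 were 5748 and 12608.5 on ND, the lowest and the highest of its 4 plates, and 9798.5 and 7872.5 on MCDD.

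Within a plate, genes followed the total closely, with a rank correlation of 0.87 to 0.96 across the wells of each of the 8 doublet plates. Diets were therefore also compared at a given total. Wells with totals as low as those of the empty wells, at most 1017, then fall outside the window. Wells with few genes but a higher total stay in it. Reference totals were the 25th, 50th and 75th percentile of the wells in SB405 and SB410, at 5001, 10239 and 19492, and the wells within 0.5 log2 units of each were used. Near the middle total, doublets had 294 genes on ND (86 wells) and 388 on MCDD (93 wells) in SB405. In SB410 they had 390 and 394 genes on ND (108 and 71 wells) and 465 and 530.5 on MCDD (111 and 134 wells). The 2 ND plates of SB410 were nearly level here, although their overall yield differed, and both MCDD plates lay above them. The log2 difference was 0.36 ± 0.078 SE (n = 3 plates per diet), 1.28-fold higher on MCDD. This SE too comes from the spread in SB410 alone, with 2 plates per diet. The batches gave similar values, 0.40 in SB405 and 0.34 in SB410. By exact permutation p was again 0.167, its lowest possible value, and 0.25 after adjustment over 3 totals.

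This difference in genes at the middle total depended little on the wells or plates used within the 2 batches. It was 0.34 in rows A to J, 0.31 with wells under 100 genes left out and between 0.31 and 0.42 with any 1 of the 6 plates left out. Leaving out either SB405 plate removed that batch, so both gave the value of SB410 alone, 0.34. Without stratification by batch, with the 2 plates of SB399 added to MCDD, the difference was 0.15. Near the lower total the ND plates had 132 genes in SB405 and 211 and 229 in SB410, and the MCDD plates 167, and 250 and 301. The log2 difference was 0.33 ± 0.12 SE (exact permutation test, adjusted p = 0.25), and 0.24 with wells under 100 genes left out. Near the upper total the diets came closer. ND plates had 569.5 genes in SB405 and 624.5 and 719 in SB410, and MCDD plates had 615, and 679 and 827. The SB410 plates overlapped, and the log2 difference was 0.14 ± 0.14 SE (exact permutation test, adjusted p = 0.333).

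The pattern by total was also visible in bins that each span a doubling of the total. Wells with totals from 4000 to below 8000 had a median of 155 genes on ND and 184.5 on MCDD in SB405. In SB410 they had 232 and 243 genes on ND and 265 and 343 on MCDD. From 8000 to below 16000 the values were 336 and 407 genes in SB405, and in SB410 423 and 443.5 on ND against 494.5 and 560 on MCDD. From 16000 to below 32000 they were 632.5 and 669 genes in SB405, and 733 and 772 on ND against 768 and 837 on MCDD in SB410. MCDD plates were above all ND plates of their batch in the first 2 of these bins, and the SB410 plates overlapped in the third. From 2000 to below 4000, where of the 2 batches SB410 alone had enough wells, the diets overlapped, at 72 and 112.5 genes on ND and 96 and 199 on MCDD. At both ends of the range the order in SB410 was the opposite, with 1 plate per diet. From 1000 to below 2000 ND had 33 genes and MCDD 26, and from 32000 to below 64000 ND had 1110 and MCDD 1074. In SB405 that last bin had 1036 genes on ND and 1097 on MCDD. MCDD plate 2 had the most genes of the SB410 plates in each bin from 2000 to below 32000.

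**Figure D3:**
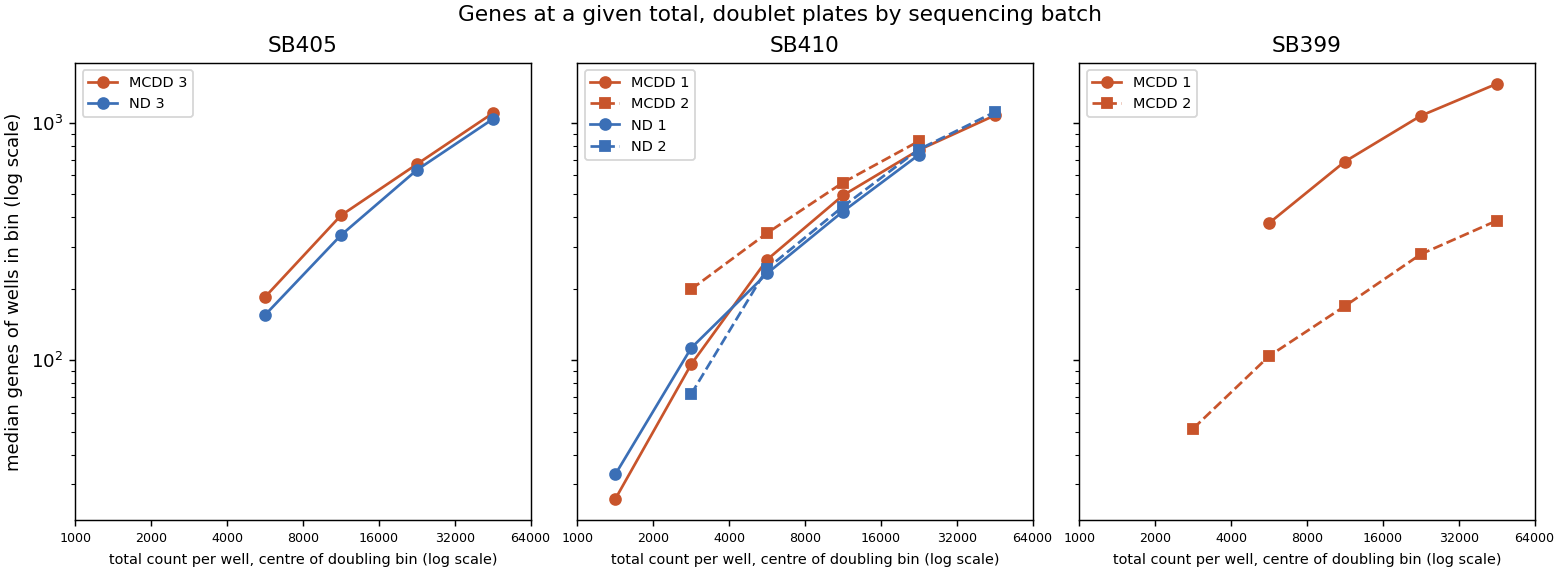
Median genes of the wells in each doubling bin of the total count (both axes log scale) for the doublet plates of each sequencing batch, for bins with at least 20 wells. Between totals of 4000 and 16000 the MCDD lines lie above the ND lines in SB405 and SB410, and the 2 MCDD plates of SB399 run far apart.

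The 2 MCDD plates without an ND partner in their batch enclosed all other doublet plates in median genes and genes at the middle total. In SB399, MCDD plate 1 had a median of 820.5 genes at a median total of 15212, and MCDD plate 2 had 162 genes at 10363.5. These plates share diet, week, sort and sequencing batch. Near the middle total they had 635 and 160.5 genes, the highest and lowest of all 8 plates. The difference was present in each of the 4 bins that both filled. From 8000 to below 16000 they had 687 and 169 genes over 155 and 126 wells. Genes per 1000 of total had a median of 54.6 on plate 1 and 15.1 on plate 2. At the middle total this gap between plates of 1 diet is larger than the difference between diets. Plate 2 had 25 low wells, and its lower median was also seen in each bin of total. In the same batch the T cell plate had 378.5 genes near the middle total and the cDC plate 532, both between the doublet plates.

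Plates of single T cells and single cDC from liver lymph nodes in the same sequencing batches allow the diet difference to be compared between sorts. At the middle total T cells had 214.5 to 302 genes on ND and 232 to 309 on MCDD in SB405, and 269 to 294 on ND and 259 to 302 on MCDD in SB410. Their diets overlapped, with a log2 difference of 0.019 ± 0.093 SE (n = 7 ND and 6 MCDD plates). For cDC the batches went opposite ways, at 0.49 in SB405 and -0.21 in SB410, and 0.14 ± 0.16 SE overall (n = 5 plates per diet). The diet difference of doublets exceeded that of T cells by 0.34 and that of cDC by 0.22 on the log2 scale. Exact permutation of the diet labels within batch and sort gave adjusted p of 0.225 and 0.443 over 6 comparisons, so a difference in response to diet was not shown. Against cDC it turned to -0.090 in SB405 alone. For the median of genes the diet difference was 0.45 in doublets. It was -0.16 ± 0.10 SE in T cells and -0.099 ± 0.13 SE in cDC. By batch it was -0.25 in SB405 and -0.046 in SB410 for T cells, and 0.12 and -0.32 for cDC. The excess was thus larger than the difference in doublets alone, at 0.61 against T cells and 0.55 against cDC (exact permutation test, p = 0.0124 and 0.0658, adjusted p = 0.0743 and 0.198). In rows A to J these 2 values were 0.46 and 0.39. With wells under 100 genes left out they were 0.37 and 0.45 (exact permutation test, p = 0.269 and 0.178). In SB405 alone they were 0.33 and -0.041, and in SB410 alone 0.69 and 0.96. For the 90th percentile of genes the diet difference was 0.17 in doublets and -0.17 in T cells and in cDC. The excess was 0.34 against each sort (exact permutation test, adjusted p = 0.443 against T cells and 0.436 against cDC).

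On either diet, doublets of SB405 and SB410 tended to have more genes than single cells at the same total. In SB410 the doublet plates had 390 to 530.5 genes near the middle total, above the 259 to 302 of 6 T cell plates and the 262 to 376.5 of 5 cDC plates. In SB405 doublets had 294 and 388 genes, against 214.5 to 309 on 7 T cell plates and 178 to 330 on 5 cDC plates, so the ND doublet plate lay within both ranges. Over all 3 batches the log2 difference was 0.42 ± 0.20 SE against T cells and 0.28 ± 0.25 SE against cDC (exact permutation test within batch and diet, adjusted p = 0.0957 and 0.326). The call depended on MCDD plate 2 of SB399. Without that plate the differences were 0.54 and 0.45 and passed the same exact permutation test (adjusted p = 0.001 and 0.00347). That omission was chosen after its value had been seen. It removed the lowest doublet plate on this readout and kept the highest, which has the same batch and diet. A rise thus followed from the choice, and no conclusion is drawn from these calls.

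**Figure D4:**
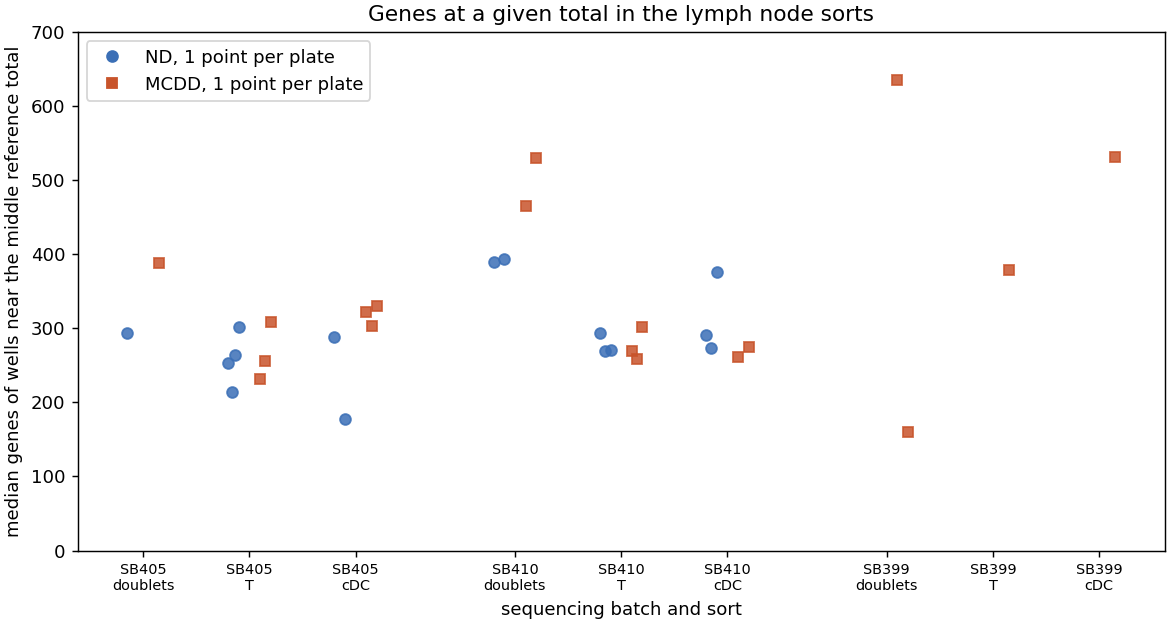
Median genes of wells within 0.5 log2 units of a total of 10239, 1 point per plate, by sequencing batch, sort and diet. The 4 doublet plates of SB410 lie between 390 and 530.5 genes, above the T cell and cDC plates of that batch, and the 2 doublet plates of SB399 lie at 160.5 and 635 genes.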

How the data were processed

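Per the labels' protocols, mRNA of cells sorted into wells was barcoded on conversion to cDNA, pooled, and amplified linearly by T7 transcription before sequencing. bcl2fastq 2.15.0.4 and the build mm10 are named in the submitters' processing notes. For the aligner, counter and filters the entry is: not given in the sources used here. Each well has 2 deposited values from the authors, a count headed total and a count of genes detected, both whole numbers. No count model applies to 2 values per well. The amplification batch tied each plate to its sample title. Log2 plate percentiles were tested by exact two-sided permutation of diet within sequencing batch. Batch differences were weighted by plates, SE pooled the variance within batch and diet, and Benjamini-Hochberg adjustment covered 5 percentiles, 3 totals or 3 shares. An adjusted p under 0.05 was a call. Windows needed 20 wells. Intervals and limits cover counting error only. The limit for a share of 0 uses 3 counts. The test and the window readout were tested on simulated data. Members, readouts and lists were chosen with earlier results of these data known. The fixed rule for naming genes and the marker list named none, since no gene-level values were used. Alternatives were other strata and weights, each plate left out, pairs of plates with the same number, wells with at least 100 genes, wells of middle total, means of log2(value + 1), and other windows, reference totals and a straight line. Rows A to J were added after seeing the data. Statistics used scipy 1.17.1 and numpy 2.4.6 under Python 3.11.15, tables pandas 2.3.3 and plots matplotlib 3.10.9.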

Additional observations from a re-analysis of the deposited data

How the results depend on the processing

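The difference between diets in median genes kept its direction under 15 alternatives (0.079 to 0.71 on the log2 scale) and in genes at the middle total under 17 (0.15 to 0.42). These counts hold repeats. Leaving out either SB405 plate left SB410 alone, and the replicate block gave the same difference as the main test by construction. No adjusted p fell under 0.05 in the diet comparisons or in the differences of diet effects between sorts. The median total turned to -0.037 in SB405 alone, -0.11 with wells under 100 genes left out and -0.017 in rows A to J, and with 1 plate left out it lay between 0.14 and 0.36. In SB405 alone the reversals were -0.047 and -0.024 for the 75th and 90th percentile of genes, and -0.047, -0.19 and -0.013 for the 25th, 75th and 90th percentile of the total. They were -1.05 percentage points for the share with at least 1000 genes, and -0.041, -0.17 and -0.090 for doublets against cDC in the diet effect on the median, the 90th percentile and genes at the middle total. Without ND plate 1 of SB410 the 75th and 90th percentile of genes turned to -0.012 and -0.10, those of the total to -0.26 and -0.27, and the share with at least 1000 genes to -1.92. Without MCDD plate 1 of SB410 the 75th and 90th percentile of the total turned to -0.14 and -0.11. With wells under 100 genes left out the 10th, 25th, 75th and 90th percentile of the total turned to -0.091, -0.13, -0.10 and -0.057, and the share with at least 1000 genes to -1.17. The 25th percentile of the total was -0.0036 in rows A to J, the 75th was -0.039 with equal batch weights, and genes at the upper total were -0.055 without stratification. The cause was not tested. Without MCDD plate 2 of SB399, doublets exceeded T cells by 0.54 and cDC by 0.45 in genes at the middle total. That plate, the lowest doublet plate on this readout, was left out after its value had been seen. With the replicate block, which pairs plates of the same number within a batch, the median difference was 0.45 (exact sign-flip test of 3 pairs, p = 0.25, the smallest they can give) and no call changed. The numbers pair plates by name only. Over 380 well positions the deviations of the 2 pairs in SB410 had a correlation of 0.0045. This value cannot show whether the pairing is real, since the same position holds different events on different plates. With 3 plates per diet in shared batches, no diet comparison could pass, and the effect of depth on the tests was not measured.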
